A study of Mus musculus with 12 samples.

Results

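The 8 genes described here encode the mitotic kinases Aurora A (Aurka), Aurora B (Aurkb) and Polo-like kinase 1 (Plk1), the activators Tpx2 and Bora, and the other subunits of the chromosomal passenger complex, Incenp, survivin (Birc5) and borealin (Cdca8). They were taken by gene symbol from 38087 genes with an Ensembl identifier. Each symbol had a single row, and all 8 were among the 13889 genes that passed the filter on low counts. Messenger RNA of mouse colonic mucosa was sequenced from 6 Sgo1-/+ and 6 wild type samples. Sgo1-/+ mice carry 1 altered copy of the gene for shugoshin 1, the protector of centromeric cohesion, and the labels do not say how the allele was made, which strain was used or whether each sample came from a separate mouse. Both genotypes had been given the colon carcinogen azoxymethane (4 mg/kg, 2 doses weekly) from week 8 to week 12 of life, and mucosa was taken at 9 months. The p-values therefore measure the spread between these samples, which may be technical.

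Aurora and Polo kinases drive the steps of mitosis. Bora helps Aurora A to activate Plk1 before mitotic entry, and Tpx2 activates Aurora A on spindle microtubules. In the passenger complex, Incenp holds Aurora B, while survivin and borealin bring the complex to the inner centromere, where it corrects faulty kinetochore attachments and later moves to the central spindle. Shugoshin binds the complex at centromeres, and the PP2A phosphatase bound to shugoshin opposes Polo and Aurora kinases there. The transcripts of this group peak in G2 and M phase, so in colon they are found mainly in the dividing cells of the crypt. In a bulk sample, a change in the number of dividing cells and a change in RNA per dividing cell cannot be told apart.

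Libraries held between 5711553 and 10198304 counts. Rows resembling mitochondrial transcripts took 11.6% to 41.7% of counts with an Ensembl identifier in Sgo1-/+ libraries and 15.8% to 42.6% in wild type libraries (exact two-sided permutation p = 0.186). Sgo1-/+ replicate 3 and wild type replicates 3 and 5 were the richest in them, at 41.7%, 42.6% and 40.7%. The targeted gene, listed as Sgol1, was at 2.33 ± 0.41 CPM in Sgo1-/+ and 3.65 ± 1.79 CPM in wild type libraries (SD, n = 6 each; CPM is the usual depth-scaled count, here with TMM library sizes). Its log2 change of -0.67 ± 0.32 (SE) did not pass edgeR's quasi-likelihood test (unadjusted p = 0.0556, adjusted p = 0.551). Absorptive colonocyte markers had summed levels of 7954 to 13167 CPM in Sgo1-/+ and 8732 to 16168 CPM in wild type libraries. Goblet cell markers had 11708 to 17041 CPM in Sgo1-/+ and 10122 to 14407 CPM in wild type libraries. These levels were not set against another tissue, so they do not test the tissue label.

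In build mm10 the files place Aurka on chromosome 2 (minus strand, 172356190 to 172370535) and Tpx2 on chromosome 2 (plus strand, 152847964 to 152895321). Bora is on chromosome 14 (plus strand, 99046427 to 99074537) and Plk1 on chromosome 7 (plus strand, 122159437 to 122169875). Aurkb and Birc5 share chromosome 11, on the plus strand at 69045647 to 69051664 and at 117849251 to 117855743. Incenp is on chromosome 19 (minus strand, 9872297 to 9899533) and Cdca8 on chromosome 4 (minus strand, 124918465 to 124939311). All are protein-coding genes in GENCODE M21. No source used here says whether reads were counted by strand, which bears on Plk1 and Cdca8. Exons of Plk1 overlap the antisense model Gm44985 over 156 bases in GENCODE M21, and the oppositely oriented gene Ern2 ends 17 bases beyond Plk1 in the files. Exons of Cdca8 overlap 9930104L06Rik, on the other strand, over 232 bases.

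The promoter windows that RefSeq (GRCm38.p6) gives for 4 of the 8 are shown, from 250 bases before to 50 bases after the RefSeq start, 5′ to 3′ on the strand of the gene. Capitals mark matches to TTTGAA, the core of the cell cycle genes homology region, and to CCAAT, the NF-Y box, found on either strand (CCAAT on the other strand reads ATTGG). Both elements are known from promoters repressed in G0 and G1 by the DREAM complex. The windows are chr2:172370521-172370820 for Aurka, chr7:122159185-122159484 for Plk1, chr4:124936868-124937167 for Cdca8 and chr11:117848987-117849286 for Birc5. The Cdca8 window lies inside the gene as the files place it, whose 5′ end on the minus strand is at 124939311. It also holds the start of 9930104L06Rik, at 124937048 on the plus strand.
Aurka: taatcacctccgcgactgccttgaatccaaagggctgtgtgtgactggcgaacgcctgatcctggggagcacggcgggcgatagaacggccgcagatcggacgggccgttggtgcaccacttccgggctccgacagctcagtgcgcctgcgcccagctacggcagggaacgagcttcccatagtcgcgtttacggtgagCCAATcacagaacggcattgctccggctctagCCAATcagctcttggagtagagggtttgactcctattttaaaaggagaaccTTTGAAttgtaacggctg
Plk1: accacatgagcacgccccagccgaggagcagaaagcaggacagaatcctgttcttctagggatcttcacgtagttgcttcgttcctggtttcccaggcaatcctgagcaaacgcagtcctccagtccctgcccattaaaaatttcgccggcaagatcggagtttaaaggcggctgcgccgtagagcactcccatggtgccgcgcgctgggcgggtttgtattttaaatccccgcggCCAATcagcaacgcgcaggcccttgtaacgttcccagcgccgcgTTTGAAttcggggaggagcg
Cdca8: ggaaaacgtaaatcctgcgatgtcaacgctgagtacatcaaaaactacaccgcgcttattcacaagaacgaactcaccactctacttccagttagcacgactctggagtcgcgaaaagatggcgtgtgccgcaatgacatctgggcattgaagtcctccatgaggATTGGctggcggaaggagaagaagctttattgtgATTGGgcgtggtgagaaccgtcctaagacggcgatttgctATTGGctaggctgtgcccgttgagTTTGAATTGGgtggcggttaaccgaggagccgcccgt
Birc5: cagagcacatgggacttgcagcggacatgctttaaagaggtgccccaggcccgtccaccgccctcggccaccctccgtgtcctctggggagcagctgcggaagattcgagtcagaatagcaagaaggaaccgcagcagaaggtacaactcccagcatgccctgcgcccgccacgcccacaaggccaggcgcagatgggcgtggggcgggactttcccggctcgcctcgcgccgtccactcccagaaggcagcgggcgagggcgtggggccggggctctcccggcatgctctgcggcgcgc
Aurka, Plk1 and Cdca8 each hold 1 match to TTTGAA, on the gene's own strand, beginning 33, 31 and 14 bases after the start. Aurka has CCAAT matches beginning at positions -51 and -19, and Plk1 has a match at -14. Cdca8 has matches on the opposite strand at -85, -51, -11 and 19, and the last shares a base with the TTTGAA match. Neither motif is in the Birc5 window, which says only that these letters are not there. Of 32851 RefSeq promoter windows of this length, 17.9% hold TTTGAA on either strand, 37.4% hold CCAAT and 6.95% hold both. TTTGAA on the gene strand within 50 bases of the start is in 2.72% of windows. A match describes the letters and is not a measured binding site. Whether these elements bear on the levels of the genes in these libraries was not tested.

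**Figure D1:**
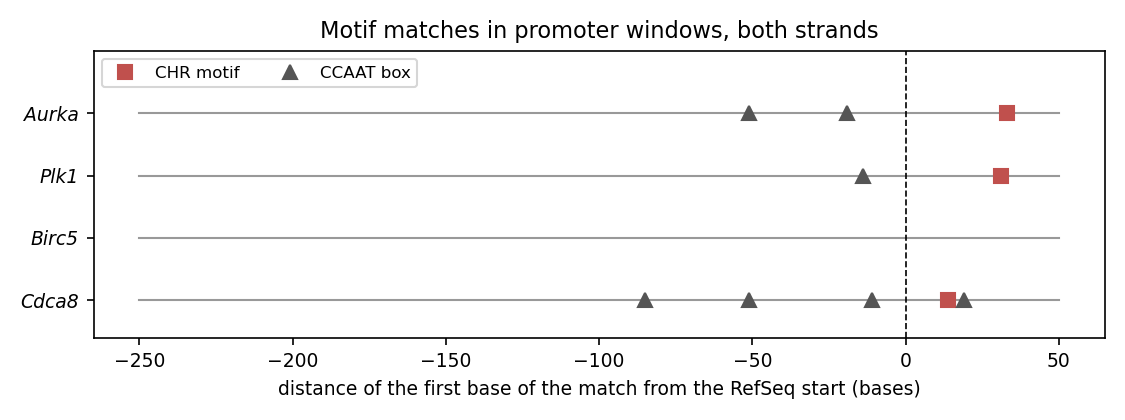
Distance in bases from the RefSeq start (dashed line) to the first base of each match, in the promoter windows of 4 genes (rows); squares (CHR motif) are TTTGAA matches and triangles CCAAT matches on either strand. Aurka, Plk1 and Cdca8 have a square 33, 31 and 14 bases after the start with triangles upstream of it, Cdca8 has a further triangle at 19, and Birc5 has no symbol.

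The comparison between genotypes asked whether transcripts of these kinases and their partners differed between Sgo1-/+ and wild type mucosa. All 8 genes had higher mean levels in Sgo1-/+ than in wild type libraries, with log2 changes from 0.36 to 0.75 and a median of 0.51, but in edgeR none reached an adjusted p of 0.05 (adjusted p between 0.491 and 0.710). No gene of the 13889 tested passed (0%), and the median log2 change over all of them was -0.0057. DESeq2 called 30 genes, none of them among the 8, and limma-voom called 0. At an unadjusted p under 0.05, 5 of the 8 were higher, namely Bora, Incenp, Plk1, Birc5 and Tpx2, and none was lower. Over all genes tested 9.04% had such a p, 4.31% higher and 4.73% lower. Log2 changes above 0 were found in 49.0% of all genes, and changes at least as large as the smallest of the 8 in 9.48%. The genes share cells and libraries, so they are not 8 separate observations.

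**Figure D2:**
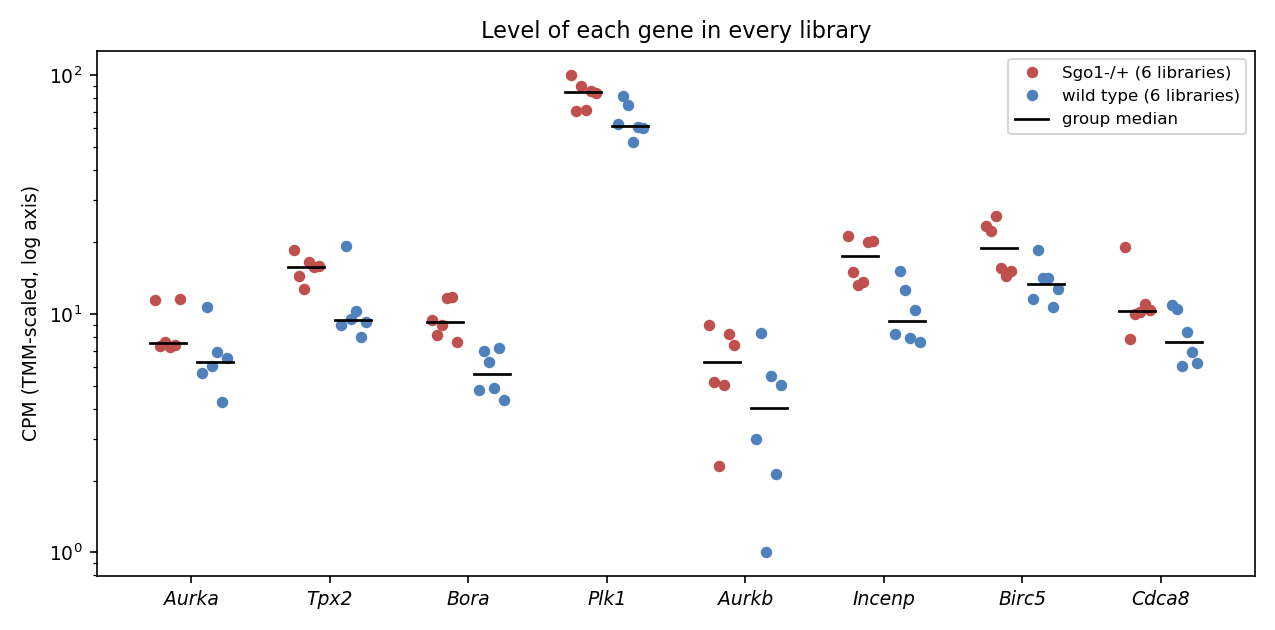
TMM-scaled CPM on a log axis for each gene in every library; red points are the 6 Sgo1-/+ libraries, blue points the 6 wild type libraries and black lines group medians. Bora is the only gene whose groups do not overlap, with the lowest Sgo1-/+ library at 7.62 CPM and the highest wild type library at 7.20 CPM.

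Bora, the cofactor through which Aurora A phosphorylates Plk1, had a log2 change close to that of Incenp, and which of the 2 was larger depended on the libraries and the fit. Its lowest, median and highest values were 7.62, 9.23 and 11.8 CPM in Sgo1-/+ libraries, against 4.33, 5.59 and 7.20 CPM in wild type libraries. Every Sgo1-/+ library lay above every wild type library, a pattern found in 0.223% of all genes tested. The log2 change was 0.75 ± 0.19 (SE; n = 6 each; edgeR unadjusted p = 0.00146, adjusted p = 0.491). Counts behind these values ran from 39.4 to 146 in Sgo1-/+ and from 24.5 to 72.7 in wild type libraries. Mzt1, the oppositely oriented gene 292 bases upstream of Bora in the files, which encodes a gamma-tubulin complex component, had a log2 change of 0.15 ± 0.15 (edgeR adjusted p = 0.770). Cstf1, the oppositely oriented gene 145 bases upstream of Aurka, had a log2 change of 0.39 ± 0.17 (edgeR unadjusted p = 0.0341, adjusted p = 0.536).

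Aurka, the centrosomal and spindle kinase, was at 7.28, 7.52 and 11.6 CPM (lowest, median and highest) in Sgo1-/+ libraries and at 4.27, 6.26 and 10.7 CPM in wild type libraries. The groups overlapped through wild type replicate 2, the highest wild type library. The log2 change of 0.38 ± 0.23 had an unadjusted p of 0.121 (edgeR adjusted p = 0.630). Tpx2, its spindle activator, was at 12.7, 15.8 and 18.5 CPM in Sgo1-/+ libraries, against 8.00, 9.39 and 19.2 CPM in wild type libraries. The highest of all 12 values was that of wild type replicate 2, and the next wild type value was 10.2 CPM, below the lowest Sgo1-/+ library. The log2 change of Tpx2 was 0.51 ± 0.20 (edgeR unadjusted p = 0.0254, adjusted p = 0.530), and it was 0.78 without wild type replicate 2. That library was set apart by its high levels of these same genes, so leaving it out favours them. Without it, 0.734% of all genes had every Sgo1-/+ value above every wild type value.

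Plk1, which acts in centrosome maturation, kinetochore attachment and cytokinesis, was at 70.5, 84.9 and 100.6 CPM in Sgo1-/+ libraries and at 52.6, 61.5 and 81.7 CPM in wild type libraries. In 4 of 6 Sgo1-/+ libraries it lay above the highest wild type library. The log2 change was 0.36 ± 0.13, with the smallest SE of the 8 (edgeR unadjusted p = 0.0147, adjusted p = 0.526). Plk1 rested on 390.3 to 1043 counts in Sgo1-/+ and 228 to 853 counts in wild type libraries, the most of the set.

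Among passenger complex genes, Incenp, the scaffold that binds and activates Aurora B, was at 13.2, 17.5 and 21.1 CPM in Sgo1-/+ libraries and at 7.65, 9.30 and 15.1 CPM in wild type libraries. All 6 Sgo1-/+ libraries exceeded every wild type library other than replicate 2. Without that library the pattern was found in 0.734% of all genes, and leaving it out favours genes that are high in it. The log2 change of Incenp was 0.74 ± 0.20 (edgeR unadjusted p = 0.00299, adjusted p = 0.491). Birc5, the survivin subunit that reads phosphorylated histone H3, was at 14.5, 18.9 and 25.6 CPM in Sgo1-/+ libraries and at 10.7, 13.4 and 18.5 CPM in wild type libraries. Its Sgo1-/+ libraries differed among themselves, with replicates 1, 2 and 3 at 22.3 to 25.6 CPM and replicates 4, 5 and 6 at 14.5 to 15.5 CPM. The log2 change was 0.50 ± 0.19 (edgeR unadjusted p = 0.0180, adjusted p = 0.527).

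Cdca8, the borealin subunit that binds shugoshin and nucleosomes, was at 7.84, 10.3 and 19.1 CPM in Sgo1-/+ libraries, against 6.03, 7.65 and 10.9 CPM in wild type libraries. Only Sgo1-/+ replicate 1, at 19.1 CPM, stood well above the wild type range, and the next library was at 10.99 CPM. The log2 change was 0.48 ± 0.23 (edgeR unadjusted p = 0.0610, adjusted p = 0.553), and 0.28 without that library. Aurkb, the kinase of the complex, was at 2.31, 6.30 and 8.97 CPM in Sgo1-/+ libraries and at 1.01, 4.02 and 8.33 CPM in wild type libraries. Its log2 change of 0.54 ± 0.42 had the widest error of the set (edgeR unadjusted p = 0.222, adjusted p = 0.710). The lowest Sgo1-/+ library was replicate 3, with 10 counts, and the lowest wild type libraries were replicates 3 and 5, with 4 and 8 counts. These 3 libraries were also the richest in mitochondrial-like rows. After adding that share to the model the log2 change of Aurkb was 0.037 and that of Aurka 0.22, with Tpx2 at 0.35, Cdca8 at 0.33, Bora at 0.76, Incenp at 0.66, Birc5 at 0.53 and Plk1 at 0.36. The unadjusted p of Tpx2 was then 0.0652 in edgeR. Without those 3 libraries Aurka was at 0.28, Tpx2 at 0.44, Bora at 0.89, Plk1 at 0.37, Aurkb at 0.35, Incenp at 0.88, Birc5 at 0.36 and Cdca8 at 0.39, a choice made after the data were seen. The unadjusted p was then 0.0719 for Tpx2 and 0.102 for Birc5 in edgeR.

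**Figure D3:**
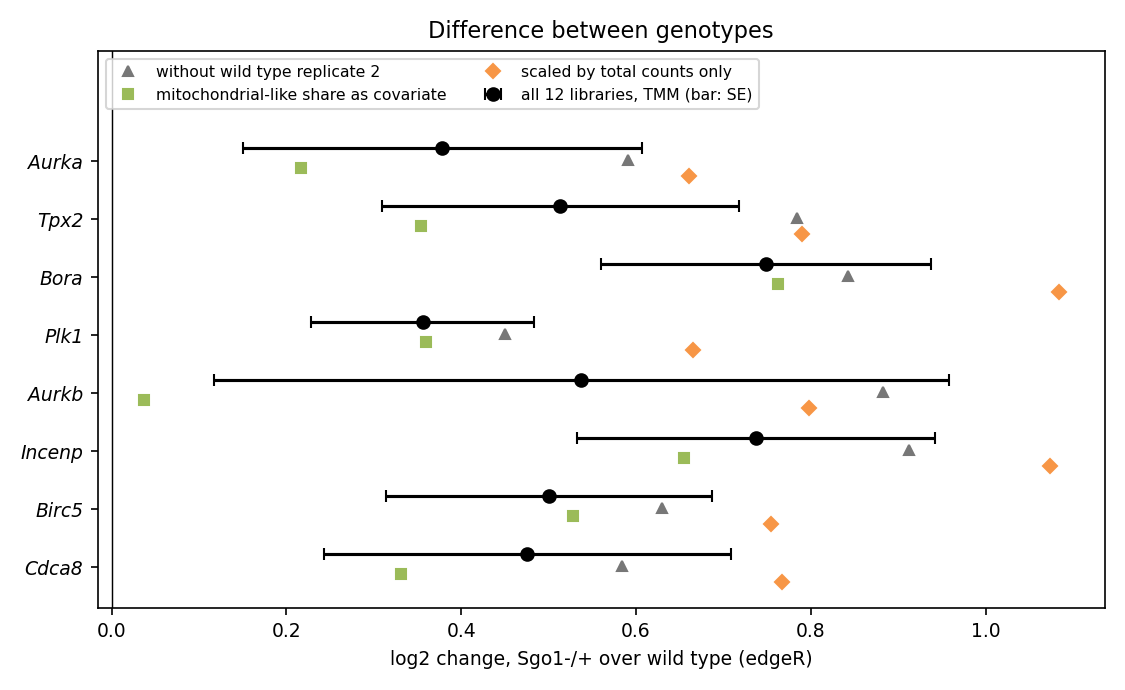
Log2 change of each gene in Sgo1-/+ over wild type from edgeR (x axis), with black points for all 12 libraries and bars for the SE, and other symbols for 3 other fits, namely that without wild type replicate 2, that with mitochondrial-like share as a covariate and that scaled by total counts only. All points lie above 0, and Aurkb lies at 0.037 with that share in the model and at 0.88 without wild type replicate 2.

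Wild type replicate 2 stood apart from the other wild type libraries. Averaged over the 8 genes, its log2 CPM was 0.33 above the 12-library mean, while the other wild type libraries lay between -0.50 and -0.27 and Sgo1-/+ libraries between 0.068 and 0.65. Its level of Mki67, the general marker of dividing cells, was 129 CPM, against 53.1 to 77.8 CPM in the other wild type libraries and 90.3 to 135 CPM in Sgo1-/+ libraries. It also had the highest Sgol1 level of all libraries, 6.7998 CPM. Without wild type replicate 2 the 6 Sgo1-/+ values lay above all wild type values for 5 of the 8 genes (Aurka, Tpx2, Bora, Incenp and Birc5), a pattern then found in 0.734% of all genes. That library was set apart by its high levels of these same genes, so leaving it out favours them. The share over all genes is therefore not a like background. Leaving out any other library gave Bora alone. The share of all genes was then 0.346%, 0.382%, 1.01%, 0.295%, 0.252% and 0.518% without Sgo1-/+ replicates 1 to 6, and 0.324%, 0.324%, 0.439%, 0.389% and 0.302% without wild type replicates 1, 3, 4, 5 and 6. The log2 changes without wild type replicate 2 ran from 0.45 for Plk1 to 0.91 for Incenp, and none passed (edgeR adjusted p between 0.219 and 0.386). Mki67 itself had a log2 change of 0.53 ± 0.20 (edgeR unadjusted p = 0.0192, adjusted p = 0.527). The part of dividing-cell content in the differences was not tested.

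**Figure D4:**
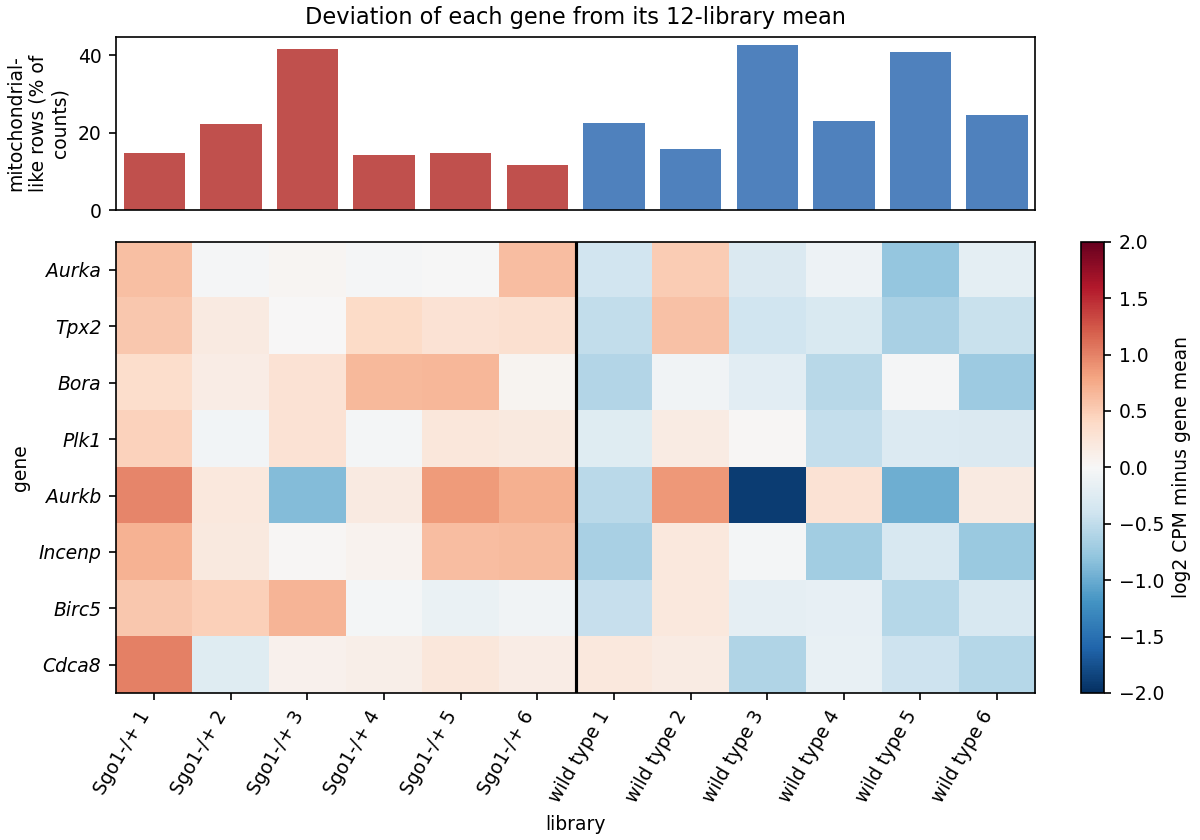
Upper bars give the percent of counts in mitochondrial-like rows per library; the lower panel colours each gene's log2 CPM minus its 12-library mean, with 6 Sgo1-/+ libraries left of the line and 6 wild type libraries right of it. Wild type replicate 2 is the wild type column above its mean in 7 of 8 genes, and Aurkb is lowest in the 3 libraries with shares of 40.7% to 42.6%.

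The column names of 4 libraries (Sgo1-/+ replicates 5 and 6, wild type replicates 1 and 6) carry a suffix that the other 8 lack. Within libraries without it the log2 changes ran from 0.25 for Aurka to 0.61 for Bora, and within libraries with it from 0.28 for Birc5 to 1.33 for Incenp. Incenp was at 0.46 without and 1.33 with the suffix, and Birc5 at 0.59 and 0.28. None of the 8 passed in either set (edgeR adjusted p of 0.999 without the suffix and 0.146 to 0.690 with it). Scaled by total counts alone the 8 changes ran from 0.66 to 1.08, where the median over all genes was 0.31.

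Per kilobase of exon, Plk1 transcripts stood far above the others. Plk1 was at 38.1 ± 5.22 CPM per kb in Sgo1-/+ and 29.7 ± 4.89 CPM per kb in wild type libraries (SD, n = 6 each). Birc5 followed with 5.70 ± 1.44 CPM per kb in Sgo1-/+ and 3.99 ± 0.81 in wild type libraries. In Sgo1-/+ libraries the others were Incenp at 3.97 ± 0.84, Aurka at 3.47 ± 0.84, Tpx2 at 3.34 ± 0.42, Cdca8 at 2.20 ± 0.76, Aurkb at 2.10 ± 0.84 and Bora at 1.87 ± 0.34 CPM per kb. In wild type libraries they were Incenp at 2.38 ± 0.70, Aurka at 2.64 ± 0.86, Tpx2 at 2.32 ± 0.88, Cdca8 at 1.57 ± 0.41, Aurkb at 1.41 ± 0.90 and Bora at 1.12 ± 0.24 CPM per kb. The intervals of mean ± SD overlapped among Incenp, Aurka and Tpx2 in both genotypes, and likewise among Cdca8, Aurkb and Bora, and the order of Incenp and Aurka differed between genotypes. Exon lengths came from GENCODE M21 over all transcripts of a gene, so a gene with long unused exons is placed too low.

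**Figure D5:**
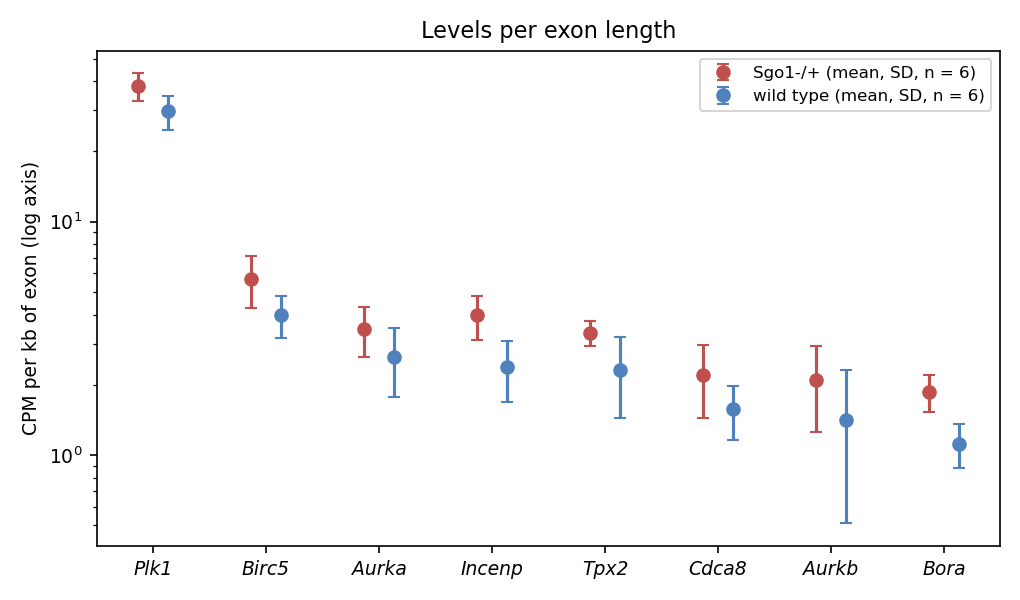
Mean CPM per kilobase of exon with SD on a log axis, red for 6 Sgo1-/+ and blue for 6 wild type libraries. Plk1 lies at 38.1 CPM per kb in Sgo1-/+ and 29.7 in wild type libraries, and the other 7 genes lie between 1.12 and 5.70.

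The neighbour Ern2, an endoplasmic reticulum stress sensor of mucus-producing cells, converges on the 3′ end of Plk1. It was chosen after its position was seen. Ern2 was at 46.1 ± 7.13 CPM in Sgo1-/+ and 37.8 ± 10.04 CPM in wild type libraries (SD, n = 6 each), a log2 change of 0.29 ± 0.17 (edgeR unadjusted p = 0.113, adjusted p = 0.621). Over the 12 libraries the log2 CPM of Plk1 and Ern2 had Pearson r = 0.69 (permutation p = 0.0140, adjusted p = 0.0319) and Spearman rho = 0.64 (permutation p = 0.0281, adjusted p = 0.0501), and r was 0.46 without the 2 libraries farthest from the median of Ern2. Bora, on another chromosome, had r = 0.80 with Ern2 (permutation p = 0.00191, adjusted p = 0.0143), rho = 0.78 (permutation p = 0.00404, adjusted p = 0.0195) and r = 0.69 without those 2 libraries. Whether reads from Ern2 were counted for Plk1 was not tested.

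How the 8 genes varied with each other was measured by correlations of log2 CPM over the 12 libraries, in a family of 44 relations that also holds those with Mki67 and Ern2. Pearson r ran from 0.28 to 0.88 over the 28 pairs, with a median of 0.67 and a median Spearman rho of 0.65, and 17 pairs passed an adjusted p of 0.05 for r by permutation. Of these pairs, Tpx2 passed with all 7 partners, and Aurkb with 2. No share of passing pairs over other genes was computed to set beside this count. The genotypes contribute to these values, since all 8 genes had higher means in Sgo1-/+. Averaged over the 8 genes, log2 CPM was lowest in wild type replicates 5 and 3, at -0.50 and -0.45 from the 12-library mean. Among Sgo1-/+ libraries it was lowest in replicate 3, at 0.068. These libraries were the richest in mitochondrial-like rows, and the part of that share in the correlations was not tested. Aurkb weighs on the averages, at -1.90 in wild type replicate 3 and -0.87 in Sgo1-/+ replicate 3. In Sgo1-/+ replicate 3, 7 of the 8 genes lay above their 12-library means. In wild type replicates 3 and 5 the number was 1 and 0. For deviations from the genotype mean the median r was 0.46, with a range from -0.17 to 0.82.

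The kinase Aurka and its activator Tpx2 were among the closest pairs, with r = 0.86 (permutation p = 7e-05, adjusted p = 0.00176) and rho = 0.86 (permutation p = 0.00071, adjusted p = 0.0133). This r was 0.86 without the 2 libraries farthest from the median of Aurka, and 0.82 for deviations from the genotype mean. Incenp and Plk1 had r = 0.88 (permutation p = 0.00026, adjusted p = 0.00381) and rho = 0.83 (permutation p = 0.00145, adjusted p = 0.0133), with 0.81 without the 2 farthest libraries and 0.77 for deviations. Aurkb and its scaffold Incenp had r = 0.45 (permutation p = 0.139, adjusted p = 0.175) and rho = 0.64 (permutation p = 0.0296, adjusted p = 0.0501), with r = 0.58 without the 2 farthest libraries. Aurkb and Birc5 had r = 0.28 (permutation p = 0.388, adjusted p = 0.417) and rho = 0.45 (permutation p = 0.1403, adjusted p = 0.172), with r = -0.0061 without the 2 farthest libraries. Aurkb and Cdca8 had r = 0.61 (permutation p = 0.0367, adjusted p = 0.0576) and r = 0.34 without the 2 farthest. Aurkb had r = 0.71 with Aurka and 0.72 with Tpx2 (permutation, adjusted p = 0.0285 each), and 0.28 with both Plk1 and Bora. Its counts were only 4, 8 and 10 in wild type replicates 3 and 5 and Sgo1-/+ replicate 3.

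With Mki67, r was highest for Tpx2, at 0.92 (permutation p = 8e-05, adjusted p = 0.00176), with rho = 0.87 (permutation p = 0.00039, adjusted p = 0.0133) and r = 0.93 without the 2 farthest libraries. It was lowest for Bora, at 0.58 (permutation p = 0.0522, adjusted p = 0.0765), with rho = 0.52 (permutation p = 0.0837, adjusted p = 0.112) and r = 0.55 without the 2 farthest. For deviations from the genotype mean these values were 0.85 for Tpx2 and 0.078 for Bora. The other 6 genes had r between 0.65 and 0.80 with Mki67.

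Ratios within a library do not use its TMM factor, though they depend on the 2 counts added to each gene. The log2 ratio of Bora to Plk1 counts was -3.10 ± 0.33 in Sgo1-/+ and -3.44 ± 0.25 in wild type libraries (SD, n = 6 each), which is 0.34 higher (p = 0.0714 by exact two-sided permutation, adjusted p = 0.357 over 5 ratios). All 6 Sgo1-/+ libraries lay above the wild type median, and 2 lay above the wild type range. The log2 ratio of Tpx2 to Aurka was 0.84 ± 0.27 in Sgo1-/+ and 0.66 ± 0.14 in wild type libraries (exact permutation p = 0.175, adjusted p = 0.438). For this ratio 5 Sgo1-/+ libraries lay above the wild type median, and 3 lay above the wild type range. Relative to Aurkb, the ratios of Incenp, Birc5 and Cdca8 differed between genotypes by 0.11, -0.14 and -0.19, each with an adjusted p of 0.835 by exact permutation, and the direction of all 3 turned when single libraries were left out. With 0.5 added in place of 2 these differences were 0.039, -0.22 and -0.25. Incenp to Aurkb ranged from 1.22 to 2.30 in Sgo1-/+ and from 0.51 to 3.12 in wild type libraries. Above the wild type median lay 6 Sgo1-/+ libraries for Incenp to Aurkb, 3 for Birc5 to Aurkb and 2 for Cdca8 to Aurkb. Each of these ratios had 0 Sgo1-/+ libraries above the wild type range.

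Other genes of the pathway are given by counts, and none of them passed an adjusted p of 0.05. Over all genes tested the median log2 change was -0.0057, and 49.0% had a change above 0. An unadjusted p under 0.05 was found in 4.31% (higher) and 4.73% (lower) of all genes tested. The genes of a list share cells and libraries, so they are not separate observations. Of the paralogs, 3 of 5 passed the count filter, with 2 higher and 1 lower. Plk2 was at 0.37 ± 0.36 and Plk4, the centriole duplication kinase, at 0.21 ± 0.27 (log2 change ± SE). Of 9 genes that recruit the passenger complex, 8 were higher with a median of 0.22, and 3 had an unadjusted p under 0.05. Bub1, the kinase that marks histone H2A for shugoshin, was at 5.505 ± 1.33 CPM in Sgo1-/+ and 2.97 ± 0.80 CPM in wild type libraries (SD, n = 6 each), a log2 change of 0.88 ± 0.23 (edgeR unadjusted p = 0.00225, adjusted p = 0.491), and Rcc2 was at 0.50 ± 0.20. The single lower gene of this list is Sgol1.

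Substrates of Aurora B and Plk1 had 14 of 17 members higher with a median of 0.36, and 5 higher and 1 lower at an unadjusted p under 0.05. Kif23, the central spindle kinesin, was at 0.56 ± 0.21, and Stmn1, a microtubule destabiliser, at 0.36 ± 0.14. Of 10 genes listed as activators, scaffolds and other partners of Aurora A and Plk1, 7 were higher with a median of 0.10. In that list 3 were higher and 1 lower at an unadjusted p under 0.05. Cep55, the abscission protein that Plk1 holds back until late mitosis, was at 0.76 ± 0.24, and Optn, an autophagy receptor, at -0.40 ± 0.13. In the Cdk1 switch 11 of 13 genes were higher with a median of 0.14, and Cdc25a, a phosphatase that activates Cdk1 and Cdk2, was at -0.35 ± 0.13 beside the cyclin gene Ccna2 at 0.51 ± 0.19. APC/C subunits and other genes of kinase degradation had 15 of 18 members higher with a median of 0.12. Its coactivator gene Fzr1 was at 0.25 ± 0.11 and its subunit gene Anapc5 at 0.25 ± 0.14.

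Opposing phosphatases had 6 of 16 members higher, with a median of -0.081 and none at an unadjusted p under 0.05. Ppp6r2, a regulatory subunit of the PP6 phosphatase that acts on Aurora A, was at -0.26 ± 0.13, and Ppp2r5c, a PP2A subunit of the family that binds shugoshin, at -0.18 ± 0.093. Of 20 transcription regulators of G2 and M phase, 12 were higher with a median of 0.032. Foxm1, the forkhead factor that activates this class of genes, was at 9.03 ± 2.29 CPM in Sgo1-/+ and 5.36 ± 1.14 CPM in wild type libraries (SD, n = 6 each), a log2 change of 0.75 ± 0.21 (edgeR unadjusted p = 0.00359, adjusted p = 0.491), and Rb1 was at -0.29 ± 0.11. S phase markers had 14 of 15 members higher, with a median of 0.20 and 1 at an unadjusted p under 0.05. They include Cdc45 at 0.87 ± 0.35 and Mcm3 at 0.65 ± 0.43. These lists and the 8 genes were chosen with earlier results of the same data known.

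Among the genes whose log2 CPM was most like the standardised mean of the 8, out of 12318 genes averaging 20 counts or more, were Cdca3 (Pearson r = 0.94), Fam58b (0.93), Sae1 (0.93), Ccna2 (0.92), Mad2l1 (0.91), Mki67 (0.90) and Bub1 (0.90), a description over 12 libraries normalised together. Their log2 changes ran from 0.38 for Sae1 to 0.88 for Bub1, with edgeR adjusted p-values between 0.491 and 0.536. They were picked by likeness to a mean that was itself higher in Sgo1-/+, so changes above 0 follow in part from the choice.

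Markers of the cell types a mucosal sample can hold were counted in the same way, and edgeR gave none an adjusted p under 0.05. They too share libraries, and 49.0% of all genes had a log2 change above 0. Of 12 crypt base markers 10 were higher, with a median of 0.44, among them Rgmb at 0.46 ± 0.14, while Prom1 was at -0.44 ± 0.13. At an unadjusted p under 0.05, 5 were higher and 2 lower, against 4.31% and 4.73% of all genes. Their summed level was 821 to 1081 CPM (median 994) in Sgo1-/+ and 834 to 1712 CPM (median 1373) in wild type libraries. At that p, absorptive colonocyte, T and NK cell, and B and plasma cell markers each had 2 lower and 0 higher. Adipocyte markers had 2 higher and 0 lower, and goblet cell and smooth muscle markers had 0 in either direction. Over all 11 absorptive colonocyte markers 10 were lower, with a median of -0.28, and Krt20 was at -0.43 ± 0.16 and Guca2b at -0.41 ± 0.18. Goblet cell markers were higher in 8 of 10, with a median of 0.18, Creb3l1 at 0.37 ± 0.25 and Clca1 at 0.28 ± 0.28. T and NK cell markers were lower in 6 of 7 that passed the filter, with summed levels of 11.3 to 18.7 CPM in Sgo1-/+ and 11.2 to 33.2 CPM in wild type libraries, and Cd3g was at -0.99 ± 0.35 and Gzma at -0.98 ± 0.44. B and plasma cell markers were lower in 7 of 8, with summed levels of 89.5 to 199 CPM in Sgo1-/+ and 151 to 320.2 CPM in wild type libraries, Igkc at -0.64 ± 0.23 and Igj at -0.63 ± 0.26. Smooth muscle markers had 3 of 6 higher, with summed levels of 23.9 to 44.8 CPM in Sgo1-/+ and 26.1 to 35.9 CPM in wild type libraries, Tpm2 at -0.53 ± 0.27 and Smtn at 0.43 ± 0.22. Adipocyte markers had 3 of 5 higher, with summed levels of 5.68 to 171 CPM in Sgo1-/+ and 21.8 to 87.2 CPM in wild type libraries, Cfd at 2.74 ± 1.05 and Car3 at 2.22 ± 0.92. No listed marker found in the files was at 0 in all 12 libraries. The part of cell composition in the differences of the 8 genes was not tested.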

How the data were processed

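Per the labels' protocols, TruSeq libraries from purified mRNA of colonic mucosa were run on an Illumina MiSeq. Build mm10 and DESeq are named in the submitters' processing notes; no source used here names the aligner or the counter. Each of the 12 deposited files has 38592 rows with raw and normalized values, per the file headers. The deposited raw values are expected counts: 69.58% of those above 0 were not whole, at a tolerance of 0. The authors' normalized values are on a log2 scale and were not used. Raw values were rounded to whole numbers, and 505 rows without an Ensembl identifier (1.79% to 5.40% of counts) were left out.

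Testing used edgeR 4.0.16 under R 4.3.3 (estimateDisp, glmQLFit, glmQLFTest, TMM; filterByExpr at 10 counts and a total of 15), with Benjamini-Hochberg adjustment over 13889 genes. SE is the absolute log2 change over the square root of F, and the prior count of log2 CPM was 2. DESeq2 1.42.0 (no adjusted p for 39 genes) and limma-voom 3.58.1 were alternatives. Ratios used counts plus 2 and exact permutation over 924 splits, and correlations used 100000 resamples in SciPy 1.17.1. Mitochondrial-like rows are 11 genes whose transcripts matched 37 mitochondrial transcripts by blastn 2.17.0 (80% identity over 50% of length). The model fit was checked on simulated counts with known changes.

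The members and gene lists were chosen with earlier results of these data known. Named genes are the 8 members, the targeted gene, from each list the 2 of smallest p that averaged 5 counts or more, and the 8 named genes most correlated with the members' mean, predicted genes left out; 1 gene that this rule takes is not reported here. Mki67, Ern2, Mzt1 and Cstf1 were added after their values or positions were seen.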

Additional observations from a re-analysis of the deposited data

Results flagged for a closer look

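A library was set apart where its gap to the nearest of the 6 in its genotype was large against the group's range, which chance gives in about 1 of 20 groups; 36 groups were looked at and 4 stood out. In Sgo1-/+ replicate 1, Cdca8 was at 19.1 CPM, against 10.99 CPM in the next Sgo1-/+ library. In wild type replicate 2, Tpx2 was at 19.2 CPM and Mki67 at 129 CPM, against 10.2 and 77.8 CPM in the next wild type libraries. In Sgo1-/+ replicate 3, the log2 ratio of Incenp to Aurkb was 2.30, against 1.499 in the next Sgo1-/+ library, and Aurkb rested there on 10 counts.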

How the results depend on the processing

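The log2 changes of the 8 genes were above 0 in all 192 values from 24 alternatives, and none had an adjusted p under 0.05; the smallest was 0.0859, for Bora in DESeq2. Without single libraries Aurka ran from 0.28 to 0.59, Tpx2 from 0.44 to 0.78, Bora from 0.68 to 0.84, Plk1 from 0.30 to 0.45, Aurkb from 0.35 to 0.88, Incenp from 0.67 to 0.91, Birc5 from 0.41 to 0.63 and Cdca8 from 0.28 to 0.58. The count of genes called over all genes was 0 in edgeR, where 1256 genes had an unadjusted p under 0.05, and 0 in limma-voom. It was 30 in DESeq2, 1 with the mitochondrial-like share in the model and 1 within libraries with the column-name suffix; the cause was not tested. Without single libraries the log2 ratio difference ran from -0.072 to 0.45 for Incenp to Aurkb, from -0.45 to 0.15 for Birc5 to Aurkb and from -0.39 to 0.018 for Cdca8 to Aurkb, on both sides of 0. The difference in mitochondrial-like share, -8.29 percentage points, ran from -12.65 to -5.41 without single libraries, and was -12.65 without Sgo1-/+ replicate 3 (exact permutation p = 0.0130), an alternative chosen after seeing the data.

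Same-numbered libraries had correlations of -0.30 to 0.45 in their deviations from the genotype mean, and 0 of 6 Sgo1-/+ libraries correlated best with its own number. With the replicate block the 8 changes ran from 0.36 for Plk1 to 0.76 for Incenp, and 0 genes were called. Depth limits Aurkb most, at 4 counts in its lowest library.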
